A study of Homo sapiens with 3 samples.

Results

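The data describe 9 genes of the ID, HES and HEY repressor families and of the inhibitory SMADs, namely ID1, ID2, ID3, ID4, HES1, HES4, HEY1, SMAD6 and SMAD7, in single cells of the ovarian cancer line OVCAR3. The 9 genes were chosen by symbol from the 36601 genes of the count tables, and they were selected with earlier results of these same counts in view. ID1, ID2 and HES1 also stand among the leading genes of a cell cluster that the study defined on these cells. Their levels, shares of positive cells and co-expression are therefore given as a description, with no test. All 9 symbols were found, and 8 of them reached 10 CPM (UMIs of a gene per 1000000 UMIs of the library) in the higher library of each comparison. HEY1 stayed below that minimum in every library.

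OVCAR3 is an established cell line that serves as a model of high-grade serous ovarian cancer. Cultures were incubated for 48 h with the solvent DMSO, with RAC1i (NSC23766, an inhibitor of RAC GTPase activation, at 50 µM) or with Combo (RAC1i at 50 µM and the EZH2 methyltransferase inhibitor GSK126 at 5 µM). Both inhibitors were dissolved in DMSO, so every culture received that solvent. Each condition was 1 culture and 1 library of the 10X Genomics 3′ chemistry, so there is no replicate check, and a difference between libraries cannot be told apart from a difference between cultures.

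ID proteins are helix-loop-helix factors without the basic region that contacts DNA. They bind E proteins (TCF3, TCF4, TCF12) and keep them from pairing with tissue-specific bHLH factors, and their genes are textbook targets of bone morphogenetic protein (BMP) signalling through SMAD1 and SMAD5. HES and HEY proteins are bHLH repressors that bind DNA, HES proteins recruit TLE corepressors, and several of their genes are direct targets of the Notch receptors through RBPJ. SMAD6 and SMAD7 are not bHLH factors. They block receptors and receptor SMADs of the BMP and TGF-beta pathways, and are themselves induced by those pathways as feedback inhibitors.

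Kept cells numbered between 7531 and 10215 per library, with a median of between 20989 and 26750 UMIs per cell and between 199063947 and 234969742 UMIs per library. The median mitochondrial share moved with treatment, from 5.60% under DMSO to 1.66% under RAC1i and 1.58% under Combo, and its part in the results below was not tested. Of 9 marker genes of ovarian carcinoma epithelium, 9 in DMSO against 9 in RAC1i and 8 in Combo reached 10 CPM, and their summed level was 3688 CPM under DMSO, 2019 CPM under RAC1i and 2218 CPM under Combo. No marker of leukocytes (5 genes), fibroblasts (5 genes) or endothelium (4 genes) reached 10 CPM in any library. Their summed levels per list lay between 1.24 and 8.54 CPM, and the highest sum was mostly that of CD14, a monocyte marker, at 0.894 CPM under DMSO, 7.62 CPM under RAC1i and between 7.14 and 7.88 CPM (exact 95% Poisson interval) under Combo, while PTPRC, the pan-leukocyte marker, was at 0 under Combo. The libraries shared few cell barcodes: among kept cells, 23 were in both DMSO and RAC1i, 15 in both DMSO and Combo, 21 in both RAC1i and Combo, and 1 in all 3. No doublet caller was applied, so cells holding material of several cells remain in the counts.

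The promoters of HES1 and HES4 are shown because these genes belong to the same family and went in opposite directions under both treatments. That of SMAD6 is shown because it alone, of the members with a promoter window, held the SMAD palindrome. The letters are the 150 bases before the RefSeq transcription start on GRCh38.p14, at chr3:194135998-194136147 on the plus strand for HES1, chr1:1000098-1000247 on the minus strand for HES4 and chr15:66702086-66702235 on the plus strand for SMAD6. Capitals mark TGGGAA, the core that RBPJ recognises, and GTCTAGAC, a palindrome of the SMAD binding element. GENCODE 44 starts HES4 upstream of the RefSeq start, so its stretch reaches into the GENCODE gene.
HES1: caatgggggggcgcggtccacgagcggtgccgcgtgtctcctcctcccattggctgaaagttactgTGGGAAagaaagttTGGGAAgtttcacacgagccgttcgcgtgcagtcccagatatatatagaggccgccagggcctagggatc
HES4: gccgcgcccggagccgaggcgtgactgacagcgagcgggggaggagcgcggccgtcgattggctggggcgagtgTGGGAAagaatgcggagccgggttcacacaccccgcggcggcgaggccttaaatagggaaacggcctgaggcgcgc
SMAD6: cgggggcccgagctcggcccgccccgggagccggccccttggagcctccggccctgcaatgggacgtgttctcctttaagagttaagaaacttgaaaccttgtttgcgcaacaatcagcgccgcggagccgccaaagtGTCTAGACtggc

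Both HES promoters carried TGGGAA at a like distance from the RefSeq start. From the GENCODE start of HES4 the distance is not alike, since the motif there begins at the base just before that start and runs into the gene, whereas both annotations give HES1 the same start. In HES1 it began at −84 and again at −70, and in HES4 at −76, all on the plus strand of the gene. The longest run of letters common to both promoters was tgTGGGAAagaa, of 12 bases, which began at −86 in HES1 and at −78 in HES4. TGGGAA was present on either strand in 24.0% of 35116 RefSeq promoter windows of 300 bases, so its presence alone is common. It was also found in 1 of the 3 start windows of SMAD7, and in no window of ID1, ID2, ID3, ID4 or SMAD6. That SMAD7 window lies inside the GENCODE gene, and the window at the GENCODE start held no match.

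GTCTAGAC began at −12 in SMAD6 and was in 0.202% of all windows. None of the other members with a window held it, and HEY1 had no window to search. The GC-rich SMAD motif GGCGCC was in 19.2% of all windows and in none of the 8 members with a window, which says only that these letters are not in the 300 bases searched. TGACG, the shorter form of the CREB site TGACGTCA, was in 24.6% of all windows and in those of ID3 and HES1. The N-box CACNAG, a site that HES proteins bind, was in 38.0% of windows and occurred 4 times in that of HES1. It occurred once each in those of ID1 and 1 of the 3 of SMAD7, again a window inside the GENCODE gene. A match is a description of the letters and not of binding.

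ID1, ID2 and ID3 were the ID genes that differed most between DMSO and the treated libraries. ID1 (ENSG00000125968, chr20:31605283-31606515, plus strand) is a classical immediate target of BMP receptors. It was at 575 CPM in DMSO (exact 95% Poisson interval 571 to 578), at 3379 CPM in RAC1i (3371 to 3386) and at 3105 CPM in Combo (3098 to 3113). It was thus 5.88 times as high in RAC1i as in DMSO (exact conditional interval 5.84 to 5.92) and 5.40 times as high in Combo (5.37 to 5.44). Both treated libraries were high and lay within 10% of each other. All intervals cover counting error only, because neither the UMIs of a cell nor the cells of a dish are independent draws.

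ID2 (ENSG00000115738, chr2:8678845-8684461, plus strand), best known for its part in lymphoid and mammary development, was at 73.8 CPM under DMSO, 601 CPM under RAC1i and 427 CPM under Combo. RAC1i was thus at 8.14 times and Combo at 5.79 times (5.69 to 5.89) the DMSO level. ID2 was high in both treated libraries and the higher in RAC1i.

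ID3 (ENSG00000117318, chr1:23557926-23559501, minus strand), which shares many expression sites with ID1, was at 47.8 CPM under DMSO, 355 CPM under RAC1i and 384 CPM under Combo. RAC1i stood at 7.41 times (7.26 to 7.57) and Combo at 8.03 times (7.86 to 8.21) the DMSO level. ID4 (ENSG00000172201, chr6:19837370-19842197, plus strand), the family member studied most in neural and mammary tissue, was at 40.8 CPM under DMSO, 120.0 CPM under RAC1i and 103 CPM under Combo. Its ratio to DMSO was 2.94 (2.87 to 3.01) for RAC1i and 2.52 (2.45 to 2.58) for Combo, the smallest of the ID family in both comparisons.

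The HES and HEY genes split. HES1 (ENSG00000114315, chr3:194136148-194138732, plus strand), an oscillating repressor of neural and progenitor cells, was at 29.4 CPM under DMSO, 246 CPM under RAC1i and 261 CPM under Combo. Its ratio to DMSO of 8.37 (8.15 to 8.60) for RAC1i and 8.87 (8.64 to 9.12) for Combo was the highest of the 9 genes in each comparison over all kept cells. In the deepest 25% of cells ID3 was highest instead, as given below. HES4 (ENSG00000188290, chr1:998962-1000172, minus strand), a relative of HES1 that the mouse genome lacks, went the other way. It was at 126 CPM under DMSO, 15.5 CPM under RAC1i and 19.0 CPM under Combo, which gave a ratio of 0.123 (0.119 to 0.127) for RAC1i and 0.150 (0.145 to 0.155) for Combo. On the log2 scale that is −3.02 and −2.74. Among all genes that met the minimum of 10 CPM, 0.649% were lower than HES4 in RAC1i and 1.20% in Combo.

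HEY1 (ENSG00000164683), a Notch target of endothelium and bone, was at 2.02 CPM in DMSO (402 UMIs), 9.39 CPM in RAC1i (2206 UMIs) and 7.59 CPM in Combo (1616 UMIs). RAC1i stood at 4.65 times (4.18 to 5.18) and Combo at 3.76 times (3.37 to 4.21) the DMSO level. In DMSO this was a mean of 0.0534 UMIs per cell. HEY1 is left out of the counts of genes past 2-fold and of the median ratios below. It is kept in the counts and correlations across cells.

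Both inhibitory SMADs were higher in the treated libraries. SMAD6 (ENSG00000137834, chr15:66702236-66782849, plus strand), which acts mainly on BMP receptors, was at 14.4 CPM under DMSO, 35.3 CPM under RAC1i and 31.2 CPM under Combo. RAC1i stood at 2.44 times (2.34 to 2.55) and Combo at 2.16 times (2.07 to 2.26) the DMSO level. SMAD7 (ENSG00000101665, chr18:48919853-48950965, minus strand), which acts on receptors of both branches, was at 31.3 CPM under DMSO, 147 CPM under RAC1i and 123 CPM under Combo. Its ratio to DMSO was 4.69 (4.57 to 4.82) for RAC1i and 3.92 (3.81 to 4.03) for Combo. The plot of levels by gene and library shows 8 genes above DMSO in both treated libraries and HES4 below it.

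**Figure D1:**
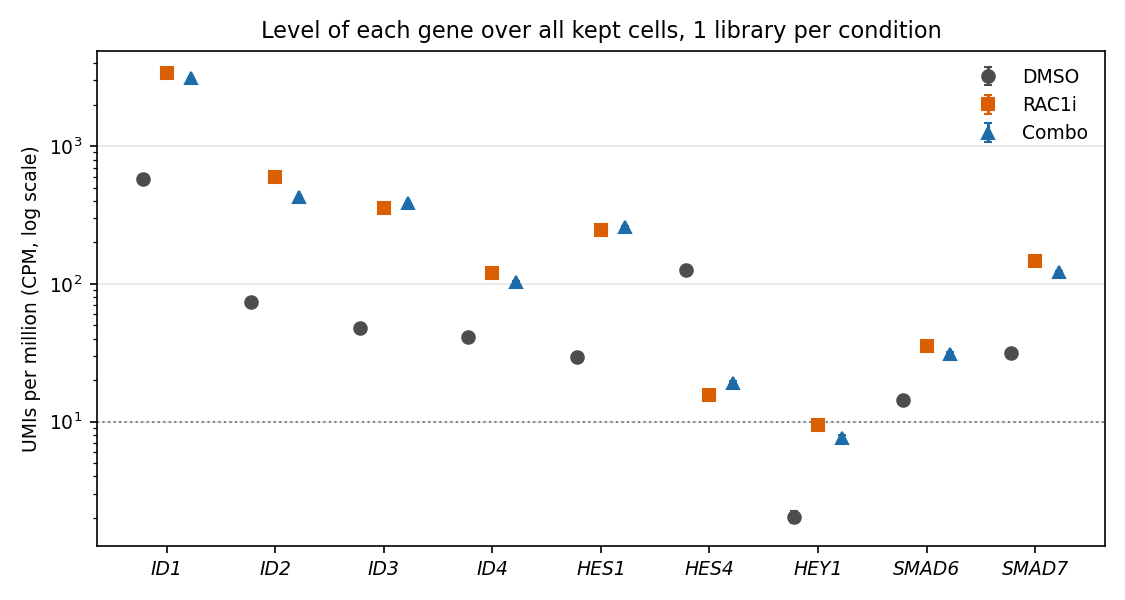
Level of each of the 9 genes in CPM on a log axis, with 1 point per library and exact 95% Poisson intervals, which are mostly smaller than the points; the dotted line is 10 CPM. ID1 went from 575 CPM in DMSO to 3379 CPM in RAC1i, whereas HES4 went from 126 CPM to 15.5 CPM.

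Of the 8 genes with at least 10 CPM, 7 were over 2-fold higher and 1, HES4, was over 2-fold lower in RAC1i than in DMSO. Over all 8778 genes that met the same minimum, 13.1% were higher and 24.6% lower by over 2-fold. For Combo over DMSO the counts were again 7 higher and 1 lower of 8, where 11.8% of 8745 genes were higher and 22.8% lower. On the scale of log2(CPM + 1), the median difference of the 8 genes was 2.37 for RAC1i and 2.18 for Combo, and over all genes it was −0.20 and −0.17. Since the genes were selected with these contrasts known, nothing is read from the shares. The comparisons also share the DMSO library, so an error in it would move both alike.

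Combo and RAC1i differed little for these genes. None of the 8 was over 2-fold apart, where 0.0269% of 7443 genes were higher and 0.0134% lower in Combo, and their median log2 ratio was −0.15 against 0.01 over all genes. ID2 stood out: its ratio of Combo to RAC1i was 0.711 (0.705 to 0.717), and 0.914% of all genes were lower than that. SMAD7 had a ratio of 0.835 (0.821 to 0.848) and ID4 one of 0.856 (0.841 to 0.872). HES4 was the member furthest above 1, with 1.22 (1.17 to 1.28), and 6.69% of all genes were higher. ID1, ID3, HES1 and SMAD6 lay between 0.884 and 1.08. With no replicate, these values cannot be set against the spread between cultures.

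Whether more cells carried a transcript, or each cell more of it, was examined in cells thinned at random to 5000 UMIs, which left 6725 cells in DMSO against 9200 in RAC1i and 7354 in Combo and left out 806, 1015 and 885 shallower cells. ID1 was already found in 85.8% of DMSO cells (exact binomial interval 84.9 to 86.6), and in 99.0% of RAC1i and 98.8% of Combo cells. Its median was 2 UMIs per cell in DMSO against 15 in RAC1i and 14 in Combo. ID1 thus differed through its level per cell, and 69.8% of RAC1i and 66.5% of Combo cells had 10 or more of its UMIs, against 1.87% of DMSO cells.

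After thinning, the other ID genes were found in a minority of DMSO cells, although without it ID2 was in a majority of them (exact binomial interval 58.9 to 61.2%). ID2 was in 26.6% of cells in DMSO against 82.8% in RAC1i and 76.4% in Combo, and the mean over its positive cells was 1.40, 4.17 and 3.25 UMIs. Both its share and its level per positive cell were higher after treatment. ID3 was in 16.8%, 71.1% and 73.7% of cells, with a mean over positive cells of 1.46, 2.48 and 2.64 UMIs. ID4 was in 16.3%, 44.3% and 39.2% of cells, at 1.21, 1.49 and 1.44 UMIs per positive cell. At such low counts a share and a mean over positive cells do not separate more positive cells from more transcript per cell: without thinning, ID4 was in 46.8%, 81.8% and 79.9% of cells, at 2.30, 3.37 and 3.32 UMIs per positive cell.

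HES1 was in 12.1% of cells in DMSO against 56.1% in RAC1i and 56.4% in Combo. Its positive cells held 1.21, 2.65 and 2.96 UMIs on average, and the cells with 5 or more UMIs made up 0.0149%, 8.82% and 10.7%. HES4 was the reverse, in 40.1% of cells under DMSO but 6.98% under RAC1i and 9.44% under Combo. HES4 was thus found in fewer cells and, in those, at 1.15 UMIs per positive cell in both treated libraries against 1.56 in DMSO.

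SMAD7 was in 13.0% of cells in DMSO against 47.9% in RAC1i and 43.4% in Combo, SMAD6 in 6.05%, 15.3% and 14.0%, and HEY1 in 1.07%, 4.70% and 3.82%. Without thinning, over all kept cells at median depths of 26750, 20989 and 24953 UMIs, the shares were larger and kept the same side of DMSO for each gene. HES1, for example, was then in 36.3%, 84.3% and 85.7% of cells and HES4 in 73.7%, 23.0% and 29.4%. No group of cells known to lack these genes was available, so the share that free RNA in the droplets can give was not measured. Low shares such as those of HEY1 may lie within it.

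**Figure D2:**
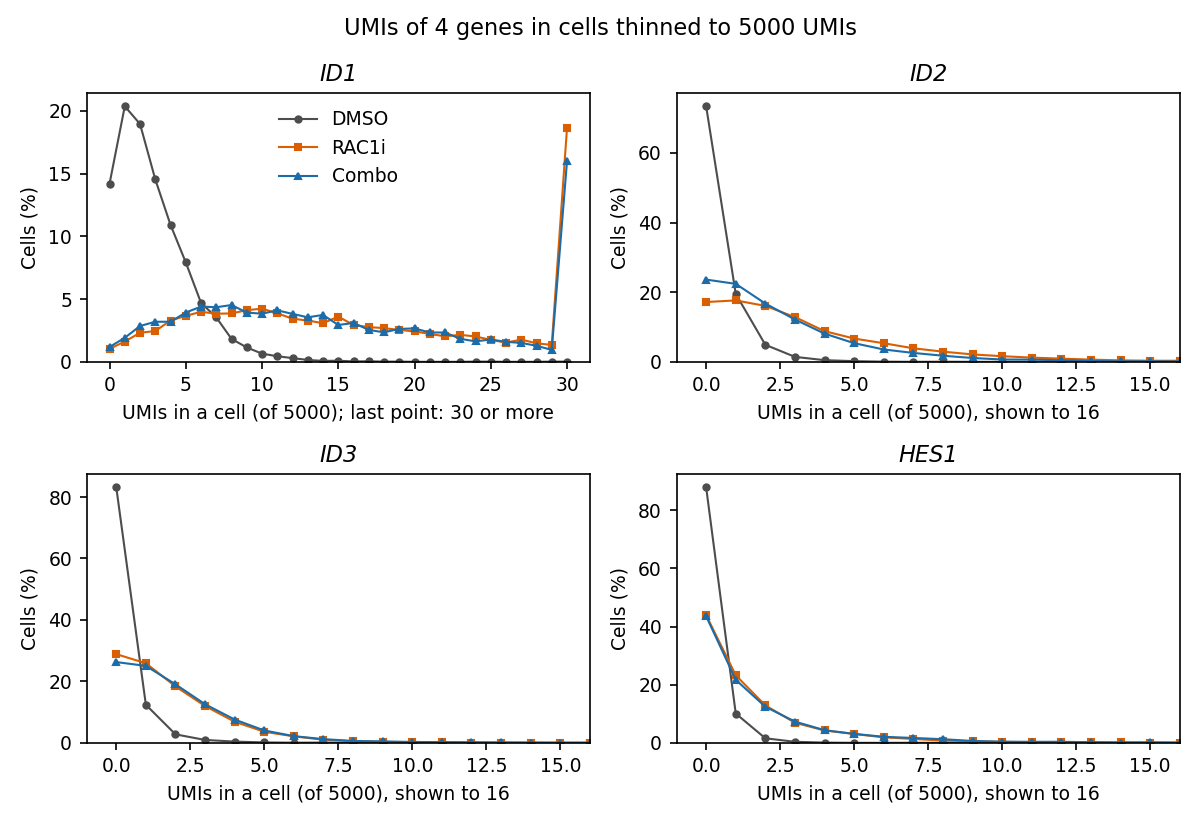
Share of cells (%) at each number of UMIs per cell for ID1, ID2, ID3 and HES1, in cells thinned to 5000 UMIs; each line is 1 library and the last ID1 point gathers cells with 30 or more. The DMSO lines peak at 0 for ID2, ID3 and HES1 and at 1 for ID1, and the treated lines spread to higher counts with no separate second peak.

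ID genes were also found together in a larger share of treated cells. The share of cells with a UMI of each of ID1, ID2, ID3 and ID4 was 1.70% in DMSO against 30.1% in RAC1i and 26.3% in Combo. Cells with none of the 4 made up 9.41% under DMSO, 0.424% under RAC1i and 0.517% under Combo. Among the 8 genes other than HES4, the median cell held a UMI of 2 in DMSO and of 4 in both treated libraries. These shares move with the single-gene shares. Set against the product of the single shares, joint cells of ID2 and ID3 were at 1.37 in DMSO, 1.03 in RAC1i and 1.04 in Combo. For ID2 and ID4 the values were 1.37, 1.08 and 1.10, and for ID3 and ID4 1.43, 1.05 and 1.06. Pairs with ID1 were also nearer to 1 in the treated libraries. The ceiling of this value is lower where single shares are high. Co-expression was therefore described by the correlation of log counts (natural log of UMIs plus 1) between genes across the thinned cells of each library. Cells of a library share its culture, its chemistry and its range of depth, so they are not replicates.

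The closest pair in the treated libraries was ID1 and ID2, with a Pearson r of 0.169 in DMSO (6725 cells), 0.593 in RAC1i (9200 cells) and 0.541 in Combo (7354 cells). ID1 and HES1 had an r of 0.057, 0.491 and 0.497, and ID2 and HES1 of 0.024, 0.470 and 0.469. ID1 and SMAD7 had an r of 0.010, 0.350 and 0.332. ID1, ID2, HES1 and SMAD7 thus had higher values in the treated libraries than in DMSO, where ID1 and ID2 had one of the higher values of that library. In the treated libraries ID3 was less tied to them, though not in DMSO: its r with ID1 was 0.192, 0.286 and 0.344, and with HES1 0.072, 0.119 and 0.154.

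HES4 did not follow the others. Over its 8 pairs, r lay between −0.017 and 0.127 in DMSO, between −0.055 and 0.005 in RAC1i and between −0.048 and 0.024 in Combo. Its highest value in DMSO was with ID3. Over the 28 pairs without HES4, the median r was 0.023 in DMSO against 0.151 in RAC1i and 0.137 in Combo, and 27 pairs were higher in both treated libraries. In counts this sparse an r near 0 is no finding in either direction.

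**Figure D3:**
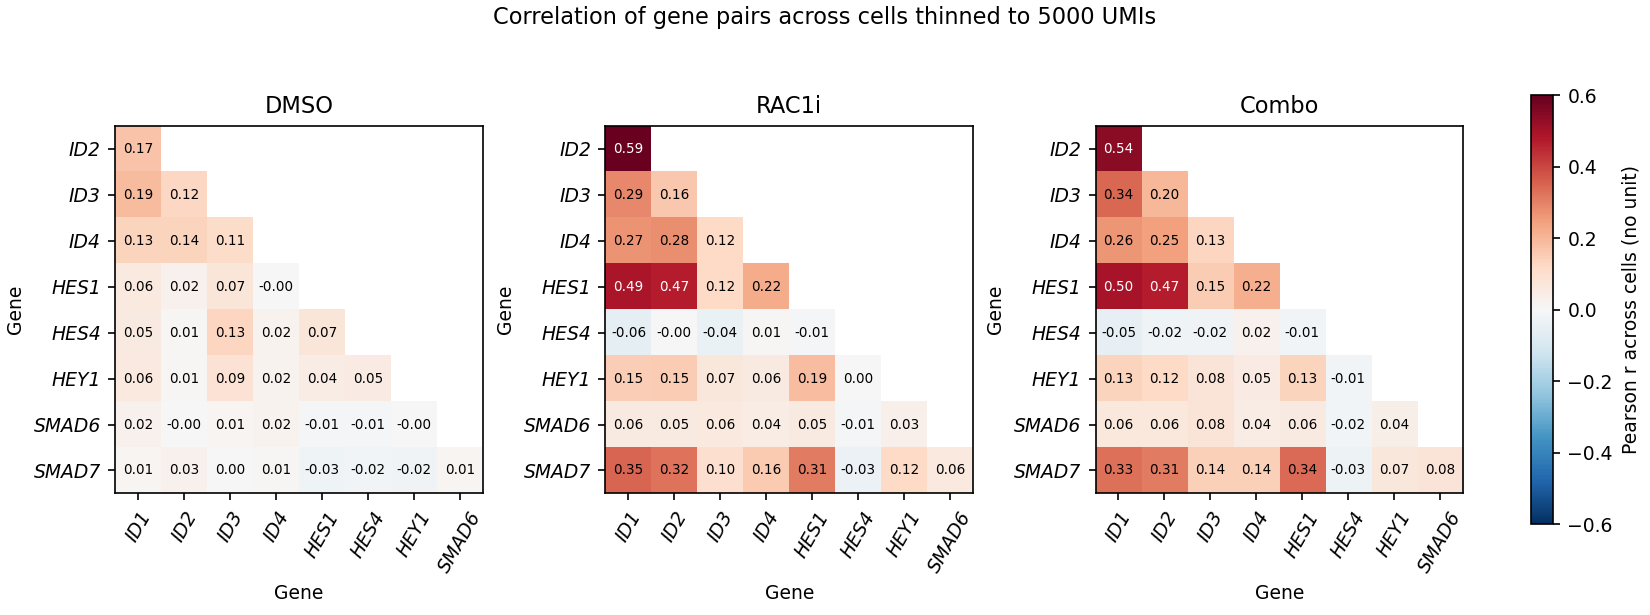
Pearson r across cells thinned to 5000 UMIs for each pair of the 9 genes, with 1 panel per library and the value printed in each cell of the grid. The block of ID1, ID2, HES1 and SMAD7 is darker in RAC1i and Combo, where ID1 and ID2 reached 0.593 and 0.541. The HES4 values lie near 0 in RAC1i and Combo, whereas HES4 with ID3 is at 0.127 in DMSO.

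An r between sparse counts grows with their level, and the levels differed between libraries. In an alternative chosen after seeing the data, the UMIs of each gene were drawn down at random to its lowest library mean. ID1 and ID2 then had an r of 0.169 in DMSO against 0.262 in RAC1i and 0.257 in Combo, ID1 and HES1 of 0.057, 0.213 and 0.224, and ID2 and HES1 of 0.024, 0.147 and 0.134. These 3 pairs stayed higher in the treated libraries, by a smaller difference. ID1 and ID3 turned around, with 0.192 in DMSO against 0.118 in RAC1i and 0.151 in Combo. Of the 28 pairs without HES4, 17 were then higher and 7 lower than DMSO in both treated libraries, and the median r was 0.023, 0.040 and 0.047.

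Depth was examined in the same way, also after seeing the data, by taking only the 25% of cells with most UMIs in each library. ID1 and ID2 had an r of 0.145, 0.488 and 0.414 there, and ID1 and HES1 of 0.079, 0.404 and 0.394. Of the 28 pairs, 24 were higher in both treated libraries than in DMSO.

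Other genes were ranked by their mean r with each member over the 3 libraries, among 2143 candidates (2142 for ID1 and ID2) with at least 50 CPM in every library. For ID1 the leading genes were ID2 at a mean r of 0.434, JUNB (an AP-1 subunit) at 0.387 and NFKBIA (the inhibitor of NF-kappaB) at 0.345. For ID2 they were ID1, NFKBIA at 0.282 and JUNB at 0.280. For HES1 they were ID1 at 0.348, NFKBIA at 0.328 and ID2 at 0.321, and for SMAD7 ID1 at 0.231, ID2 at 0.222 and NFKBIA at 0.206. The same few genes led these 4 lists, and their values came from the treated libraries: ID1 with JUNB had an r of 0.036 in DMSO against 0.565 in RAC1i and 0.561 in Combo.

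ID4 was led by ID1 at 0.222, ID2 at 0.221 and NFKBIA at 0.156, and ID3 by ID1 at 0.274, ID2 at 0.161 and the ribosomal protein gene RPS15 at 0.119. The genes nearest to HES4 were MIF, a secreted cytokine, at 0.110, AURKAIP1 at 0.108 and S100A6, a calcium-binding protein gene, at 0.106. Those nearest to SMAD6 were RHOBTB3 at 0.069, the mitochondrial MT-CO2 at 0.051 and SKIL, a SMAD corepressor, at 0.050. Values as low as those of HES4 and SMAD6 say little. JUNB and NFKBIA are among the leading genes of the same cluster of the study as ID1, ID2 and HES1, so their likeness is not independent of how the genes were selected.

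The members were next described in cells ranked by other measures, within each library. The first was the summed UMIs of 13 immediate early genes (FOS, FOSB, JUN, JUNB, EGR1, EGR3, ATF3, IER2, IER3, ZFP36, DUSP1, KLF6 and BTG2), which cells induce within minutes of a stimulus or of handling. The top 25% of cells was set against the bottom 25%, with ties included. JUNB, part of this sum, was among the genes nearest to ID1 and ID2 above. It is also a leading gene of the same study cluster as ID1, ID2 and HES1. IER2, also in the sum, had a mean r of 0.328 with ID1. The ratios by this sum are therefore not independent of those correlations. In DMSO, HES1 was at 22.2 CPM in the bottom and 35.3 CPM in the top cells, a ratio of 1.59 (1.37 to 1.86). In RAC1i it went from 102 to 581 CPM, a ratio of 5.68 (5.36 to 6.02), and in Combo it reached 666 CPM, a ratio of 7.01 (6.54 to 7.52). HES1 thus differed between these cells by more in the treated libraries, and the bottom cells of RAC1i were still above the top cells of DMSO.

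ID1 had a top to bottom ratio of 1.17 in DMSO against 3.17 in RAC1i and 3.03 in Combo, and ID2 was at 1.01 in DMSO and 3.12 in RAC1i. SMAD7 had 1.79, 2.78 and 3.01, and ID4 1.09, 2.14 and 1.95. ID3 had 0.844, 1.32 and 1.40, and SMAD6 had 1.24, 1.06 and 1.28. After either treatment these genes were nearer to even than ID1, ID2, SMAD7 and ID4. Under DMSO they were not, since ID2 and ID4 lay closer to even there. HES4 had 1.05, 0.839 (0.695 to 1.01) and 0.734 (0.610 to 0.883), below 1 in Combo and with an interval that includes 1 in RAC1i. The groups in DMSO were cut at 2 and 5 summed UMIs, and those of RAC1i at 6 and 16, so the DMSO groups are coarser. With ties, the bottom and top groups held 2552 and 2437 of 6725 cells in DMSO, against 2734 and 2382 of 9200 in RAC1i.

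The 6 metallothionein genes (MT1E, MT1F, MT1G, MT1M, MT1X and MT2A), which bind zinc and copper and respond to metal and stress, separated HES1 and ID1 in a like way. Between the top and bottom cells by their summed UMIs, HES1 had a ratio of 0.969 in DMSO against 4.05 in RAC1i and 3.93 in Combo, and ID1 one of 1.09, 2.63 and 2.51. ID3 stayed at 1.08, 1.13 and 1.12. HES4 was higher in metallothionein-rich cells, at 1.12, 1.62 (1.34 to 1.98) and 1.88 (1.55 to 2.28), in Combo the opposite side from its immediate early ratio. The groups were cut at 0 and 2 summed UMIs in DMSO, 10 and 75 in RAC1i and 17 and 115 in Combo, so a DMSO ratio near 1 does not show a lack of relation. With ties, the bottom and top groups of DMSO held 2788 and 1870 of 6725 cells. MT2A, MT1X and MT1F are also leading genes of the study's cluster that holds ID1, ID2 and HES1. The metallothioneins themselves differed between libraries, with MT2A at 135 CPM under DMSO, 6652 CPM under RAC1i and 9518 CPM under Combo, and so did immediate early genes in both directions: JUNB was at 69.2, 555 and 516 CPM and EGR1 at 63.5, 19.6 and 20.3 CPM.

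Cell cycle genes gave another order. Between the top and bottom 25% of cells by 48 G2 and M phase genes, HES4 had a ratio of 1.56 in DMSO against 0.843 in RAC1i and 0.715 in Combo, and HES1 one of 1.36, 0.608 and 0.588. ID4 had 1.60, 0.847 and 0.818, and SMAD6, which was the furthest from even in DMSO, had 1.92 (1.44 to 2.59), 1.11 and 1.13. ID1 had 1.06, 0.721 and 0.728 and ID2 0.934, 0.719 and 0.695, so HES4, ID4 and SMAD6 were further from even in DMSO and HES1, ID1 and ID2 in the treated libraries. For 33 S phase genes, HES4 had 1.63, 1.76 and 1.35, the only member above 1.3 in all 3 libraries, while ID1 had 0.897 in DMSO and 0.762 in Combo. The G2 and M groups were cut at 10 and 31 summed UMIs in DMSO and at 12 and 23 in both treated libraries. Those of S phase were cut at 3 and 11 in DMSO and at 2 and 6 in both treated libraries. Groups in DMSO thus lay further apart, which limits a comparison of sizes between libraries. With ties, the top S phase group of Combo held 2272 of 7354 cells.

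Depth moved with several members. In thinned cells ranked by their UMIs before thinning, HES1 in the deepest against the shallowest 25% had a ratio of 1.36 in DMSO against 0.377 in RAC1i and 0.271 in Combo. ID2 had 1.03, 0.446 and 0.445, ID1 1.08, 0.585 and 0.552, and SMAD7 1.59, 0.562 and 0.462. Treated cells with few UMIs thus held the higher share of HES1, ID2, ID1 and SMAD7. ID3 barely depended on depth, with 0.879, 0.925 and 0.926. Between the top and bottom cells by mitochondrial share, HES1 had a ratio of 1.19 in DMSO against 1.33 in RAC1i and 1.56 in Combo, and HES4 one of 0.695, 2.30 and 2.63.

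**Figure D4:**
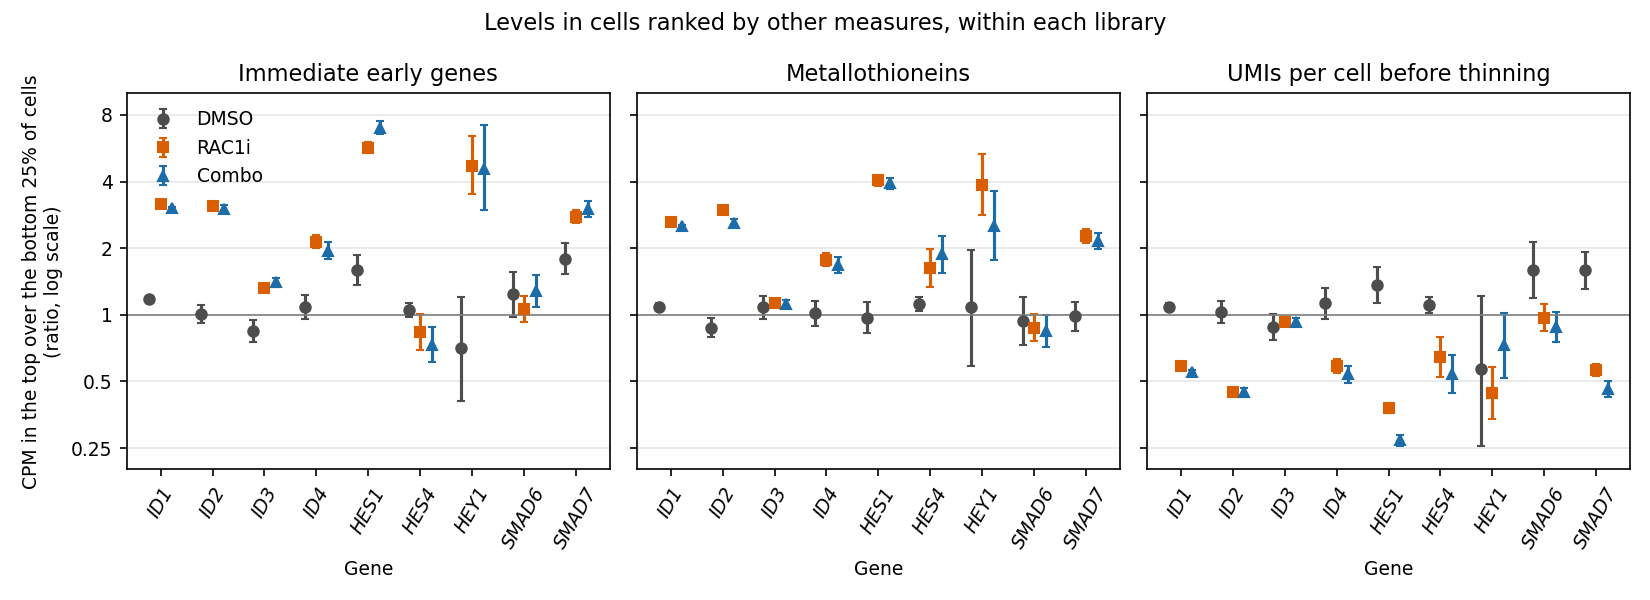
Ratio of CPM (log axis) between the top and the bottom 25% of cells, with ties included. Cells were ranked within each library by summed immediate early genes, by summed metallothioneins or by UMIs per cell before thinning. Bars are exact 95% conditional intervals. Ties made the DMSO groups of the immediate early and metallothionein panels wider than 25%. HES1 in RAC1i sits at 5.68, 4.05 and 0.377 in the 3 panels, whereas the ID3 points stay between 0.844 and 1.40.

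The size of the difference from DMSO therefore depended on which cells were compared, an alternative again chosen after seeing the data. In the shallowest 25% of cells with at least 5000 UMIs, with median depths of 9748 UMIs in RAC1i and 9895 in DMSO, HES1 was 20.9 times as high in RAC1i as in DMSO (18.2 to 24.2). In the deepest 25%, with medians of 42927 and 46439 UMIs, it was 5.79 times as high (5.11 to 6.59). SMAD7 had a ratio of 11.1 in the shallowest and 3.94 in the deepest cells, ID2 one of 14.7 and 6.37, and ID1 one of 9.59 and 5.19. ID3 was alike in both, with 7.19 and 7.57. HES4 was at 0.169 in the shallowest and 0.0986 in the deepest cells. For Combo over DMSO, HES1 had 25.7 and 5.13 and ID3 7.95 and 8.38. All 9 genes kept their side of DMSO in both depth groups and both comparisons. The ratio of Combo to RAC1i did not keep its side of 1 for HES1, at 1.23 in the shallowest and 0.885 in the deepest cells, while that of ID2 was 0.710 and 0.709.

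The other genes of the pathways were taken from lists made by pathway role, with earlier results of these counts known. Over all genes, 13.1% were over 2-fold higher and 24.6% lower in RAC1i, and 11.8% and 22.8% in Combo. As for the members, nothing is read from the counts beside these shares. A gene was counted when either library of a comparison reached 10 CPM, so some entered only where they were high. SMAD9, TLE4 and DLX2 did so through the treated libraries, and LTBP1, LFNG, MAML2 and TWIST1 through DMSO. Of the 17 BMP and TGF-beta ligands in the tables, 5 reached 10 CPM, and 0 were over 2-fold higher and 3 lower in RAC1i. BMP7, a ligand that signals through SMAD1 and SMAD5, was at 354 CPM under DMSO, 79.1 CPM under RAC1i and 78.5 CPM under Combo, the lowest ratio of the list at 0.224 and 0.222. TGFB2 was furthest above, with a ratio of 1.49 in RAC1i and 1.09 in Combo. BMP7, the only BMP gene that reached the minimum, was thus lower in both treated libraries than in DMSO. A relation of its RNA level to that of the ID genes was not tested.

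Of 12 receptors, 5 reached 10 CPM, with 1 higher and 2 lower in RAC1i and 0 higher and 2 lower in Combo. ACVR2A, an activin type II receptor, had a ratio of 2.07 in RAC1i and 1.61 in Combo, and its relative ACVR2B one of 0.200 and 0.211. All 6 receptor and common SMADs reached the minimum, SMAD9 through the treated libraries only. SMAD9, a BMP-responsive receptor SMAD, was at 1.80 CPM under DMSO, 15.0 CPM under RAC1i and 13.1 CPM under Combo. SMAD1 went the other way, from 24.8 CPM under DMSO to 10.0 CPM under RAC1i and 9.93 CPM under Combo, while SMAD5 lay at 37.0, 37.8 and 41.5 CPM.

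Of the extracellular and membrane antagonists, 5 of 11 reached the minimum and 3 were over 2-fold lower in both treated libraries. These 3 reached the minimum in DMSO only, so they were counted through the library where they were high. LTBP1, which anchors latent TGF-beta, had the lowest ratio at 0.170 and 0.149, and TWSG1, a BMP-binding protein, the highest at 1.56 and 1.40. Among 11 other SMAD targets and SMAD repressors, 9 reached the minimum, with 4 over 2-fold higher in RAC1i, 3 in Combo and 0 lower in either. KLF10, a TGF-beta-inducible zinc finger gene, was at 10.0 CPM under DMSO, 477 CPM under RAC1i and 471 CPM under Combo, a ratio of 47.6 and 47.1. DLX2, a homeobox gene, was at 5.05, 110 and 87.6 CPM. SKI, a corepressor of SMADs, was nearly even at 0.911 and 0.970.

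NOTCH2 and NOTCH3, the Notch receptors that reached the minimum, were below their DMSO level in both treated libraries. Of 8 ligand and fringe genes, 4 reached 10 CPM and 1 was over 2-fold lower: LFNG, a glycosyltransferase that modifies Notch, at 0.164 in RAC1i and 0.145 in Combo. The ligand DLL3 had a ratio of 1.67 and 1.91. Of 4 receptors, NOTCH1 stayed below 10 CPM at 6.03 CPM under DMSO, 6.43 CPM under RAC1i and 6.02 CPM under Combo, as did NOTCH4. NOTCH3 was at 34.9 CPM under DMSO, 13.3 CPM under RAC1i and 12.6 CPM under Combo, and NOTCH2 at 47.3, 37.4 and 26.5 CPM. Of 13 processing and nuclear factors, 10 reached the minimum and 1, the coactivator gene MAML2, was over 2-fold lower, at 0.380 and 0.311, while MAML1 had a ratio of 1.96 and 1.92.

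Among 13 other HES, HEY and Notch target genes, 5 reached 10 CPM. SOX9 had the highest ratio in RAC1i at 2.11, NRARP, a feedback inhibitor of Notch, the highest in Combo at 1.61, and MYC the lowest in both at 0.727 and 0.426. The partners of the ID proteins did not follow them: TCF12 had a ratio of 1.10 in RAC1i and 0.965 in Combo, and TCF4 one of 0.492 and 0.444. Of 6 TLE genes in the tables, 4 reached the minimum. TLE4, a corepressor of HES proteins, was at 1.70 CPM under DMSO, 13.6 CPM under RAC1i and 14.0 CPM under Combo, and TLE1 had ratios of 0.872 and 0.768. TWIST1 was the only gene of 11 class II bHLH factors that reached the minimum, with a ratio of 0.325 and 0.339.

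**Figure D5:**
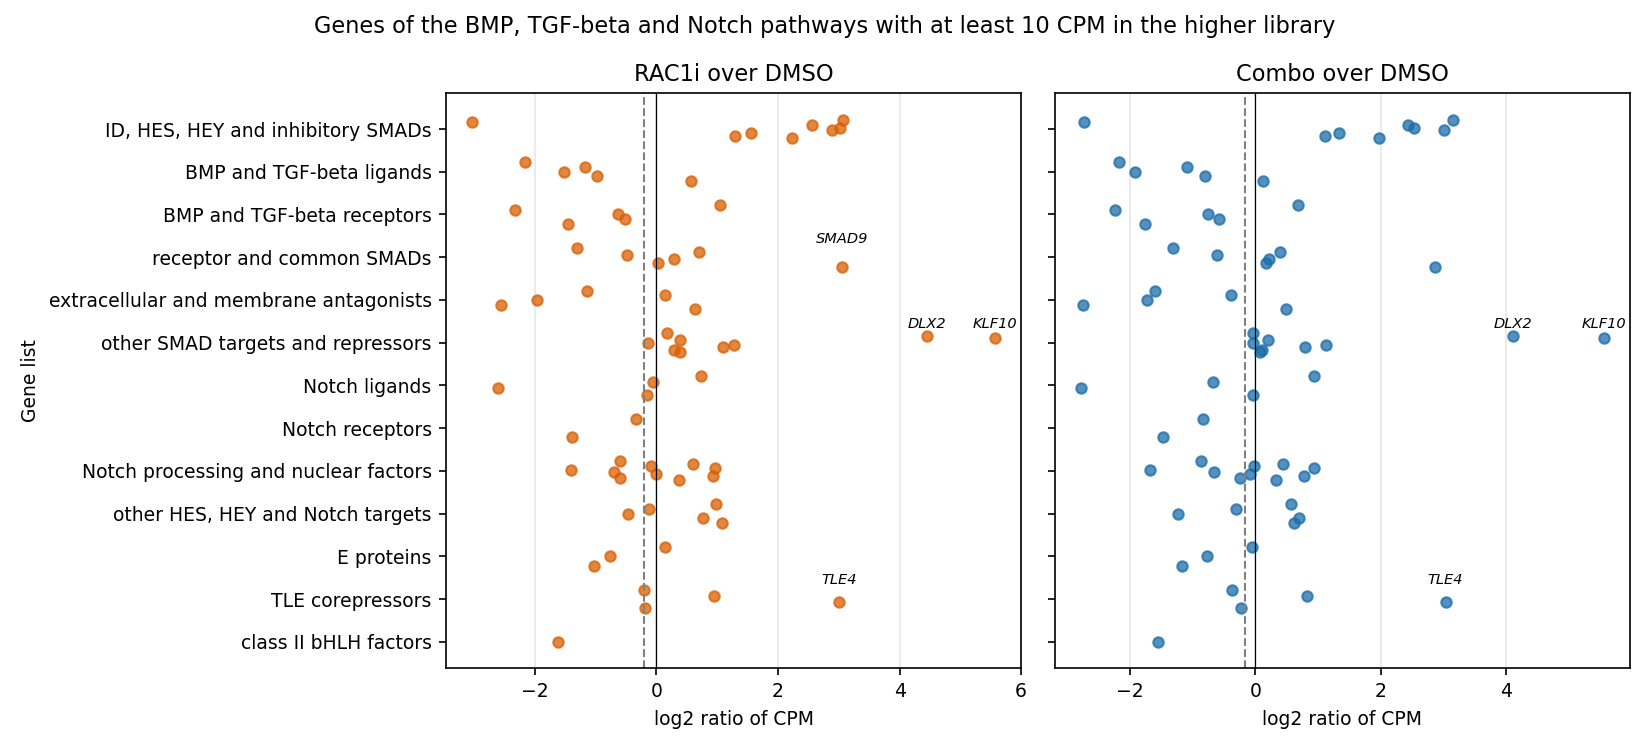
Log2 ratio of CPM to DMSO for every gene that met the minimum of 10 CPM, by gene list, for RAC1i (left) and Combo (right); each point is 1 gene and the dashed line is the median over all genes. The members lie to the right except HES4 at −3.02, and KLF10 is the furthest point to the right in both panels.

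Between Combo and RAC1i, none of the pathway genes that reached 10 CPM was over 2-fold apart. The lowest ratios were those of JAG1, a Notch ligand, at 0.646, FSTL1 at 0.699, NOTCH2 at 0.708, SOX9 at 0.723 and TGFB2 at 0.735. PSENEN, a subunit of the gamma-secretase that cuts Notch, was the highest at 1.27, followed by DLL3 at 1.14.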

How the data were processed

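The authors deposited whole-number counts of UMIs per gene and barcode, made with Cell Ranger 4.0.0 on GRCh38 and not normalized. Doses are those of the study's methods. Groups came from the sample titles and treatment labels, and no column of another sample was present. The 9 members and the gene lists were chosen with earlier results of these data known.

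A barcode counted as a cell if it had more than 1000 genes, no more than 20% of its UMIs from the mitochondrial genome and a complexity (log10 genes over log10 UMIs) above 0.8, as in the study's methods. UMIs were summed over kept cells and given as CPM. Intervals are exact at 95%: Poisson for a CPM, conditional binomial for a ratio and Clopper-Pearson for a share. With 1 library per condition no test was made and no p-value is given. The 3′ counts are not scaled by gene length, so levels were not compared between genes. Shares, correlations and groups of cells used cells thinned to 5000 UMIs. Genes named besides the members are, per list, those with the highest and the lowest ratio in each comparison among genes reaching 10 CPM in either library, and, per member, the 3 genes with the highest mean r. MT2A, EGR1, CD14, PTPRC, NOTCH1, NOTCH4 and, against DMSO, SMAD5 and DLX2 were named after their values were seen.

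Python 3.11.15, NumPy 2.4.6, SciPy 1.17.1, pandas 2.3.3 and R 4.3.3 were used. Ratios and their intervals were tested on simulated Poisson counts, the model that the intervals assume. Spread between cells or cultures was not part of that test. Thinning was checked on kept cells of DMSO. The correlations were not tested on simulated counts. Scaling factors of edgeR 4.0.16 (TMM) and DESeq2 1.42.0 served as alternatives, beside other limits on cells, depths and minimums. Positions are from GENCODE 44, by Ensembl identifier. Promoter windows (250 bases before to 50 after the start) are RefSeq's on GRCh38.p14 and matched 8 of 9 members by symbol.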

Additional observations from a re-analysis of the deposited data

How the results depend on the processing

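No paired analysis was possible because each condition was 1 library and the labels carry no replicate numbers. The count of members past 2-fold stayed within 1.5 times its value in all 27 recalculations, and no ratio of a member to DMSO changed direction in 10 recalculations each. Sizes of ratios were less stable: over all recalculations, 159 log2 ratios of single members left their counting interval and 111 did not. Of the shares of cells, 56 did and 52 did not. These include the shares at 2500 UMIs and without thinning, which a change of depth moves by design. The count of shares is therefore no measure of stability. Of the correlations, 189 left and 243 did not leave an interval set by the number of cells. That interval treats cells as independent, which they are not. Thinned to 2500 UMIs, ID2 was in 15.1% of cells in DMSO, 68.4% in RAC1i and 59.7% in Combo, its r with ID1 was 0.102, 0.518 and 0.475, and all 9 shares kept their side of DMSO. The median log2 ratio of RAC1i to DMSO, 2.37 as reported, was 2.45 with TMM scaling, 2.49 with DESeq2 size factors, 2.31 with totals without mitochondrial genes, 2.69 as a mean over cells, 2.43 in thinned cells, 2.42 without the 8% deepest cells and 2.20 with no minimum CPM, where HEY1 enters. That of Combo to DMSO, 2.18 as reported, was 2.27, 2.30, 2.12, 2.60, 2.42, 2.24 and 1.94 in the same order. The median of Combo to RAC1i stayed between −0.17 and −0.13. DESeq2 size factors moved the median over all genes from −0.20 to −0.07 for RAC1i and from −0.17 to −0.04 for Combo. Only Combo over RAC1i changed sign for single genes: HES1 in the deepest 25% of cells (log2 −0.18, against 0.08 as reported), SMAD6 in the shallowest 25% (0.01, against −0.18) and HEY1 in the deepest (0.00, against −0.31). The 8% left out stands for doublets, whose number is unknown. With 402 UMIs in DMSO, HEY1 was limited by depth, and no count of UMIs replaces a second culture.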
